A study of Mus musculus with 8 samples.

Results

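The wild-type translatome of hippocampal CCK cells was described from 3 libraries, WT 1, WT 2 and WT 3, which are all the wild-type libraries among the 8 of the series. The other 5 libraries come from conditional knockouts and were not used here. Each library is RNA of a pull-down of tagged ribosomes, made by translating ribosome affinity purification (TRAP) from a pool of 4 mouse hippocampi. The mice carried CCK-Cre together with a Cre-dependent EGFP fusion of the ribosomal protein L10 (L10-EGFP), and the wild-type group was made of littermates that were not homozygous for the floxed allele of SMARCA3. The labels do not say whether these littermates carried 1 floxed copy or none, how the pools relate to each other, which construct drives Cre, or how old the animals were. Input RNA was not analysed here, so each value is a level within the pull-down and not an enrichment over tissue. RNA carried along without a tagged ribosome was not measured and cannot be told apart here from RNA of tagged cells.

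Cholecystokinin is a neuropeptide made by a class of hippocampal interneurons with basket-type axons, which are known for a high content of the cannabinoid receptor CB1. Many glutamatergic neurons of the hippocampus and neocortex also transcribe its gene, Cck, at some time in development or adult life. Cre leaves a permanent mark, so a Cck-driven Cre tags ribosomes in cells that express Cck and in cells that once did. A pull-down from such mice can therefore hold RNA of pyramidal cells, granule cells and interneurons together. In RNA from many cells, fewer cells of a type and less RNA per cell cannot be told apart.

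The gene that gives the cells their name lies on the minus strand of chromosome 9 (GRCm38, 121489824 to 121495694). The 250 bases before its start site, at chr9:121495695-121495944 on GRCm38.p6, are given from RefSeq because this region contains the letters of an E-box (CACGTG) and of a cyclic AMP response-type element (TGCGTCA), which are set in capitals and the rest in lower case. The sequence is read 5′ to 3′ on the strand of the gene.
Cck promoter: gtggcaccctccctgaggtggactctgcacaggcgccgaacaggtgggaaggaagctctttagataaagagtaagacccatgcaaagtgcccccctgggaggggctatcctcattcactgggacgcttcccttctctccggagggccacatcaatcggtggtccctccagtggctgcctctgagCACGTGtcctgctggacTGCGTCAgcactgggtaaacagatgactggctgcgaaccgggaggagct
CACGTG stands 66 to 61 bases before the start and TGCGTCA 49 to 43 bases before it. Of 32851 RefSeq promoters of the same length, 1978 (6.02%) hold CACGTG and 574 (1.75%) hold TGCGTCA on either strand. A match describes these letters and shows no binding.

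Total counts were 37239119, 49522676 and 47670751 in WT 1, 2 and 3. Levels are given in CPM, the count scaled to a library total of 1000000, and, wherever genes are compared with each other, in TPM, which also divides by the length of all exons of a gene. A gene was taken as expressed when it had at least 1 CPM in all 3 libraries, a floor that 13674 of 39017 genes reached (35.0%) and 11433 of 21226 protein-coding genes (53.9%). Each count of listed genes at the floor given below is to be read beside that 53.9%. A gene called under the floor missed 1 CPM in at least 1 library and can exceed it in another. The expressed protein-coding genes had a median of 16.0, 15.8 and 16.6 TPM. Protein-coding genes took 91.5% ± 0.705 (SD, n = 3) of the counts, and genes annotated as processed pseudogenes 3.54% ± 0.0996 (SD, n = 3). Pearson's r of log2 CPM between libraries was 0.979, 0.979 and 0.986 over the 13674 genes, which are not independent replicates. There is 1 group here and no contrast, so no test is given: levels are set against the spread of the 3 libraries, and an exact sign-flip permutation test over 3 libraries, two-sided, could not go below p = 0.25.

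The 4 genes that mark the cells were all found, at levels far apart. Cck was at 1507, 1366 and 1027 TPM in WT 1, 2 and 3, with a mean of 1300 ± 247 TPM (SD, n = 3). It ranked 46th of the 21226 protein-coding genes by mean TPM, with the lowest value in WT 3. Slc17a7, which encodes the vesicular glutamate transporter VGLUT1 of pyramidal and granule cells, was at 192, 211 and 201 TPM. Its 3 values lay within a narrow range. Cnr1, the gene of the CB1 receptor, was at 74.0, 63.2 and 68.6 TPM, ranking 1970th. Gad2, which encodes the GABA-synthesising enzyme GAD65, was at 41.9, 43.9 and 53.5 TPM and ranked 2791st. Cck stood above Slc17a7 in all 3 libraries, 6.38-fold on average, and Slc17a7 stood above Gad2 in all 3. The log2 ratio of Slc17a7 to Gad2 in TPM was 2.20, 2.26 and 1.91, a mean of 2.12 ± 0.19 (SD, n = 3) or 4.36-fold.

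**Figure D1:**
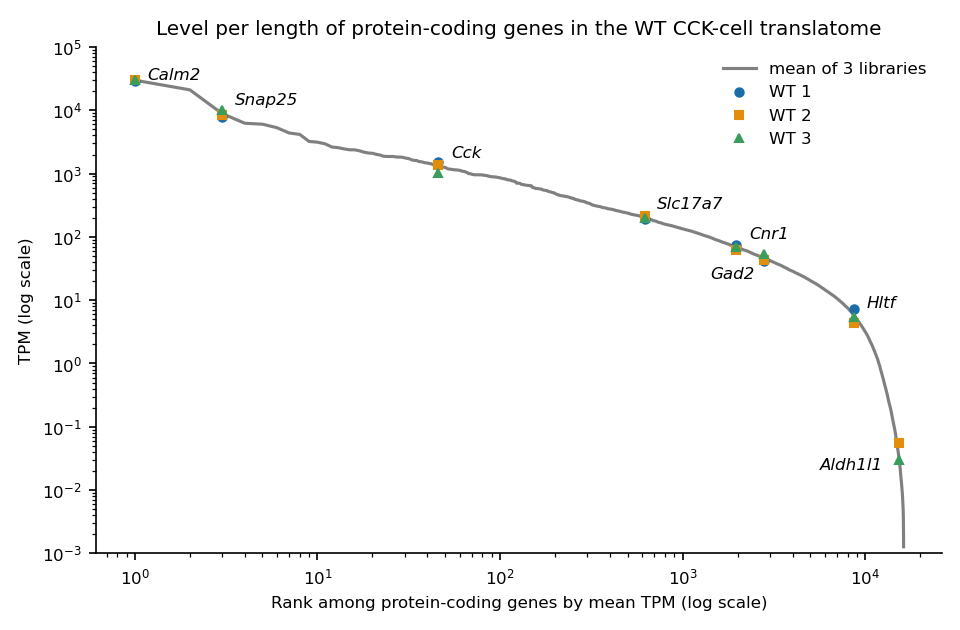
Level per length (TPM, log scale) of protein-coding genes ordered by rank of their mean TPM (log scale) over 3 WT libraries. The grey line is the mean and the symbols are the single libraries for 8 named genes, and values of 0, such as Aldh1l1 in WT 1, are not drawn. Cck lies at rank 46, well to the left of Slc17a7, Cnr1 and Gad2.

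By share of all counts, the pull-downs were led by RNAs of synaptic release, calcium sensing and 14-3-3 adaptor proteins. The 10 highest genes took 9.49, 9.51 and 9.25% of the counts, the 100 highest 23.4, 23.4 and 23.1%, and the 1000 highest 56.2, 56.3 and 56.2%. Snap25, a SNARE protein of vesicle fusion, was the highest gene by mean CPM at 17426, 18838 and 21962 CPM in WT 1, 2 and 3. It was highest in WT 3. Calm2, which encodes the calcium sensor calmodulin, was at 14018, 14524 and 13762 CPM. Vsnl1, the neuronal calcium sensor visinin-like 1, was at 12251, 13059 and 14364 CPM. Calm2 kept within a narrow range in the 3 libraries, while Snap25 and Vsnl1 were both lowest in WT 1. Camk2a, the alpha subunit of the calcium- and calmodulin-dependent kinase of excitatory synapses, was at 6399, 6011 and 6066 CPM. The 14-3-3 genes Ywhaz, Ywhah and Ywhae were also among the 25 highest, with Ywhaz at 8114, 8031 and 8634 CPM. Other genes in that group were Atp6v1g2 of the vacuolar proton pump, the immunophilin gene Fkbp1a, Rasgrp1, Rtn1, Syn1, Wipf3, the peptide-processing carboxypeptidase gene Cpe, Tmsb4x, the calcineurin subunit gene Ppp3r1, the sodium pump subunit gene Atp1b1, Gnas and Chn1. Grin2b, an NMDA receptor subunit, was also there at 2741, 2558 and 2584 CPM, and had the longest exon union of the group.

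Some of the 25 highest genes by CPM need care. Gm42418, a noncoding gene known to overlap ribosomal RNA sequence, was at 17490, 13794 and 7873 CPM and so differed between libraries more than any coding gene beside it except Lars2. Lars2, the mitochondrial leucyl-tRNA synthetase gene, was at 3282, 4330 and 1486 CPM, lowest in WT 3 like Gm42418. The exon bases of Gm20721 are 99.0% shared with others in the Gnas region of chromosome 2. The counting is not stated to use strand, so counts of such overlapping genes cannot be told apart from those of their neighbours. Of 14546 genes with a mean of at least 1 CPM, 71 had exactly the counts of another gene in all 3 libraries.

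**Figure D2:**
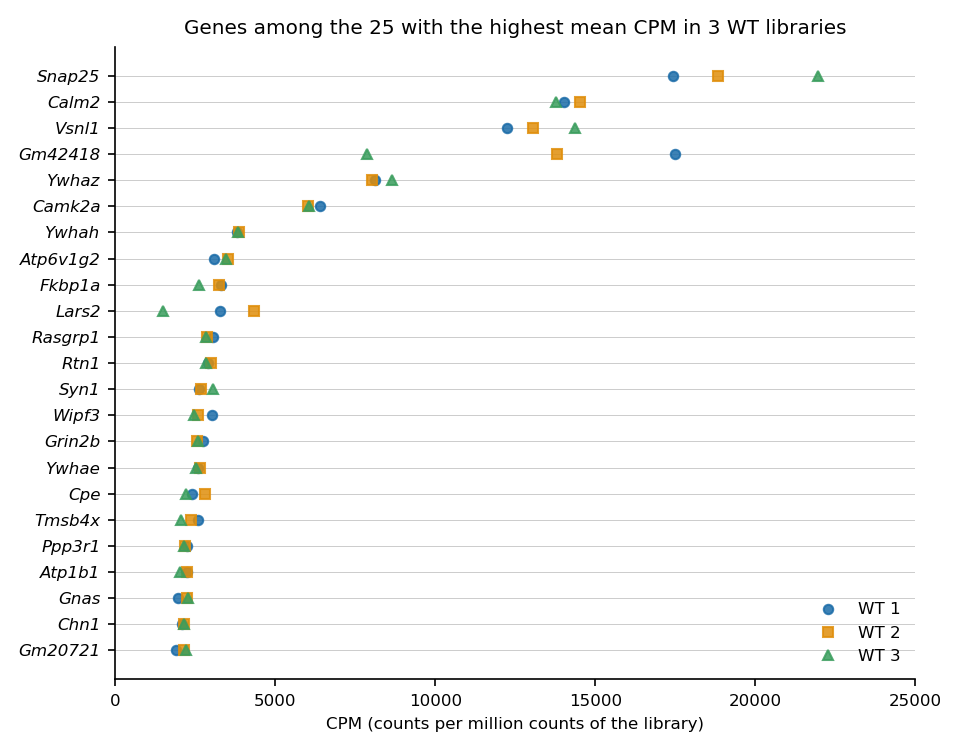
CPM of genes among the 25 with the highest mean over 3 WT libraries, 1 symbol per library. Most genes hold their 3 symbols close together, while Gm42418 runs from 7873 to 17490 CPM and Lars2 from 1486 to 4330 CPM.

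Division by exon length changed the order. Calm2 was then first among protein-coding genes at 29475, 30399 and 29816 TPM, followed by Vsnl1 at 19321, 20500 and 23341 TPM. Snap25 came next at 7915, 8518 and 10279 TPM. Over genes of all kinds, the processed pseudogene Gm10123 stood above Snap25 in each library, at 9567, 10535 and 11221 TPM. The 100 highest protein-coding genes by TPM had a median longest transcript of 1971.5 bases, against 3869.5 bases for the 100 highest by CPM and 3568 for all expressed ones. Of the 100 highest genes, 91 by CPM and 89 by TPM were shared by all 3 libraries.

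The glutamatergic program was present almost in full. Of 21 genes listed for glutamatergic neurons, 20 reached the floor, and Emx1 did not. Camk2a was at 2644, 2472 and 2583 TPM, Nrgn, a calmodulin-binding protein of dendrites, at 1082 to 1159 TPM, and Neurod6, a transcription factor of pyramidal cells, at 1086, 1144 and 1028 TPM. Values for Neurod6 overlapped those for Nrgn. Next came Sv2b, a synaptic vesicle protein, at 334 to 350 TPM, the kinase gene Ptk2b at 271 to 288 TPM, Camk2b at 214 to 230 TPM and Neurod2 at 193 to 227 TPM. Slc17a7 exceeded Slc17a6, the VGLUT2 gene, 17.9-fold, and Slc17a6 itself was at 12.2, 8.72 and 13.4 TPM. Thus VGLUT1 RNA stood above VGLUT2 RNA in every library and with each length tried. The median member of the list stood at 126 TPM, against a median of 16.1 TPM over all expressed protein-coding genes.

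GABAergic genes were detected at lower levels. Of 19 listed, 14 reached the floor (73.7%, against 53.9% of protein-coding genes), and the median member stood at 3.57 TPM. After Gad2 came Abat, a GABA-degrading enzyme, at 17.2 to 20.8 TPM. Gad1, which encodes GAD67, was at 9.98, 13.6 and 18.9 TPM, and Slc32a1, the vesicular GABA transporter gene, at 3.70, 4.79 and 6.15 TPM. Both were lowest in WT 1 and highest in WT 3. Of the exon bases of Slc32a1, 24.9% are shared with another gene. The interneuron transcription factors Dlx1, at 6.46 to 10.3 TPM, and Sp9, at 3.49 to 4.38 TPM, were also present, while Dlx2, Dlx6, Nkx2-1, Kcnmb2 and Cort stayed under the floor. Gad2 stood above Gad1 in all 3 libraries, 3.37-fold with the exon union and 1.16-fold with the median transcript length.

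Genes listed for CCK interneurons were present in 21 of 22 cases, with Sncg under the floor. Beside Cck and Cnr1, the highest were Tnfaip8l3 at 164, 151 and 187 TPM, Kctd12, an auxiliary subunit of GABA-B receptors, at 96.3 to 116 TPM, and Necab1, a calcium-binding protein, at 88.9 to 103 TPM. For Kctd12, 64.2% of exon bases are shared with another gene. Calb1 stood at 73.6 to 90.4 TPM, but it is also listed for CA1 cells and granule cells, and Tnfaip8l3 and Prox1 are shared with the granule cell list. The more selective members were low: the serotonin-gated channel gene Htr3a was at 11.1, 8.28 and 14.9 TPM, Vip at 9.01, 5.92 and 5.55 TPM and Slc17a8, the VGLUT3 gene, at 1.42, 1.48 and 2.40 TPM. Slc17a8 therefore stood far under Slc17a7 in every library. The values do not show how much of the Cck RNA lies in interneurons and how much in glutamatergic cells.

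Other interneuron classes left a mixed trace. Sst, the peptide of somatostatin cells, was at 79.7, 53.1 and 72.7 TPM, and Npy at 20.6, 32.8 and 25.8 TPM. Pvalb, the calcium buffer of parvalbumin cells, was at 3.50, 3.45 and 4.10 TPM, from 44, 58 and 64 counts, and Cnr1 exceeded it 18.6-fold. Other defining parvalbumin genes were as low, with Syt2 at 4.23, 2.49 and 2.07 TPM and Cox6a2 under the floor. Chrna2, which marks somatostatin cells of stratum oriens, had 0, 3 and 10 counts. Calb2 was at 27.4, 37.7 and 33.1 TPM and Lamp5 at 45.2, 32.2 and 33.6 TPM, whereas Ndnf, a marker of neurogliaform cells, was at 0.786, 0.730 and 1.33 TPM. Outside the interneurons, 4 of 8 genes listed for Cajal-Retzius cells reached the floor (50%, against 53.9% of protein-coding genes). The summed level of the 8 was 7.05, 4.66 and 7.36 TPM, and Lhx5 had no count.

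**Figure D3:**
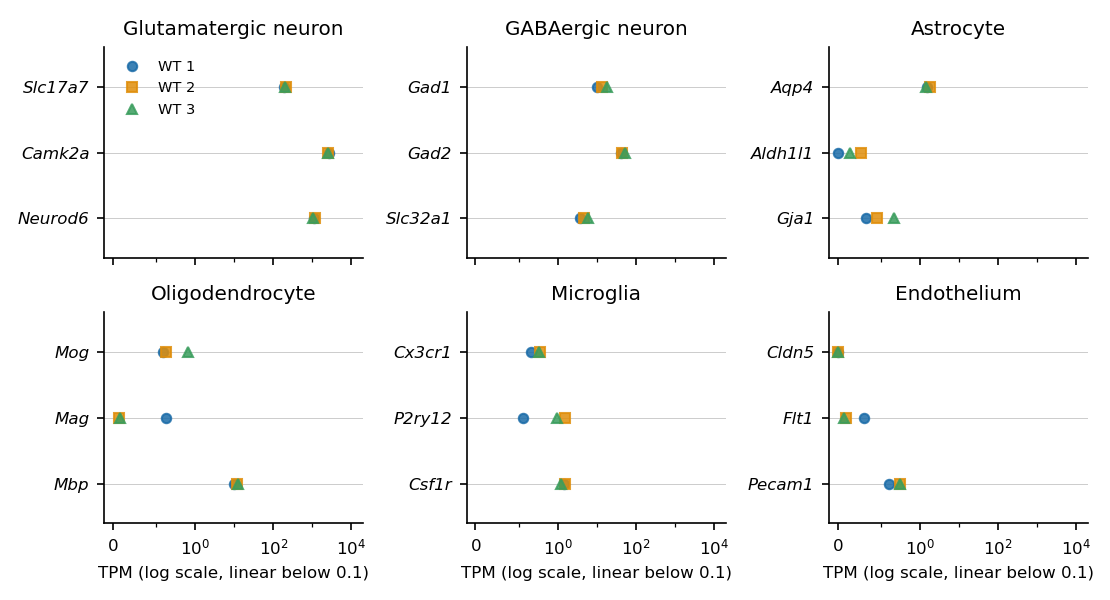
TPM (log scale, linear below 0.1) of 3 defining genes for each of 6 cell classes in WT 1, 2 and 3. Glutamatergic genes lie between 192 and 2644 TPM, GABAergic genes between 3.70 and 53.5 TPM, and most genes of glia and endothelium under 2 TPM, with Mbp at 9.996 to 12.2 TPM as the exception.

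Markers of CA1, CA2, CA3 and the dentate gyrus were found. For CA1 pyramidal cells, 17 of 17 genes reached the floor: Wfs1, an endoplasmic reticulum membrane protein, was at 177, 152 and 106 TPM, Mpped1 at 158, 133 and 118 TPM and Fibcd1 at 39.4, 26.3 and 17.3 TPM. All 3 were highest in WT 1 and lowest in WT 3. Etv1 and Ccn3 of the same list did not share that order, at 113, 130 and 127 TPM and 90.9, 116 and 111 TPM. For CA3, 18 of 19 reached the floor, Cdh24 being the exception. The granin Chgb led that list at 406, 435 and 492 TPM, and the defining genes Bok, Grik4 and Coch were at 86.5, 66.6 and 81.5 TPM, 11.05, 11.8 and 11.9 TPM and 8.10, 7.07 and 6.12 TPM. Chgb is made in many kinds of neurons. Wfs1 stood above Bok in all 3 libraries by the exon union, 1.82-fold, but the ratio was 0.846 with the median transcript length, so their order is not settled. For CA2, 13 of 14 reached the floor, with a median member at 14.8 TPM. Pcp4, a calmodulin regulator, was at 1584, 1819 and 2056 TPM, the only member above 100 TPM on average. Amigo2 was at 41.1, 31.5 and 27.3 TPM and Rgs14 at 22.9, 19.1 and 21.5 TPM. Pcp4 was lowest in WT 1 and highest in WT 3, and the part of other cells in its level was not tested. Avpr1b, the vasopressin receptor of CA2 cells, remained under the floor.

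Dentate granule cell genes were present in 23 of 24 cases, Plk5 being under the floor, and varied between the pools more than any other neuronal list described here. Fam163b was at 179, 238 and 399 TPM in WT 1, 2 and 3. Prox1, the transcription factor that defines granule cells, was at 16.0, 36.0 and 68.5 TPM. The synaptic organiser gene C1ql2 was at 10.9, 24.7 and 44.4 TPM. All were lowest in WT 1 and highest in WT 3, and in CPM the highest library exceeded the lowest 4.15-fold for Prox1 and 3.96-fold for C1ql2. Stxbp6, a SNARE-binding protein, was at 20.2, 46.8 and 98.8 TPM, the desmosome gene Dsp at 2.62, 5.94 and 11.8 TPM and the tryptophan-degrading enzyme gene Tdo2 at 1.39, 4.62 and 6.82 TPM. In contrast, C1ql3 was at 80.4, 95.3 and 86.5 TPM and Tnfaip8l3 was lowest in WT 2. The summed level of the 24 genes was 984, 1247 and 1768 CPM, a 1.80-fold range.

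Among the 23 granule cell genes at the floor, 18 were highest in WT 3 and lowest in WT 1, against 18.6% of all 13674 genes at the floor (2540 genes). WT 3 stood more than 1.5-fold above WT 1 for 15 of the 23, against 7.39% of all genes. The median log2 ratio of WT 3 to WT 1 was 0.98 over these members and -0.01 over all genes at the floor. For CA1 the opposite order, highest in WT 1 and lowest in WT 3, held for 9 of 17 members, against 19.7% of all genes, with a median log2 ratio of -0.47, and WT 1 stood more than 1.5-fold above WT 3 for 6 of the 17, against 7.23% of all genes. Among CA3 genes, 8 of 18 were highest in WT 3 and lowest in WT 1. Lowest in WT 1 were 14 of 18, against 4745 of all 13674 genes at the floor. WT 3 stood more than 1.5-fold above WT 1 for 5 of the 18. The median log2 ratio of WT 3 to WT 1 was 0.20 over these CA3 genes. The order of lowest in WT 1 and highest in WT 3 also held for 6 of 14 GABAergic genes and 16 of 33 presynaptic genes. It held for 5 of 20 glutamatergic genes, whose median log2 ratio was 0.02. The list was noted for this spread after its values were seen, and WT 1, 2 and 3 have no order of their own. Relative to Prox1, Wfs1 was 3.47, 2.08 and 0.63 higher on the log2 scale of TPM. Gad1 and Slc32a1 shared the library order of the granule cell genes and Kcnd2 that of the CA1 genes, and the part of cell composition in these values was not tested.

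**Figure D4:**
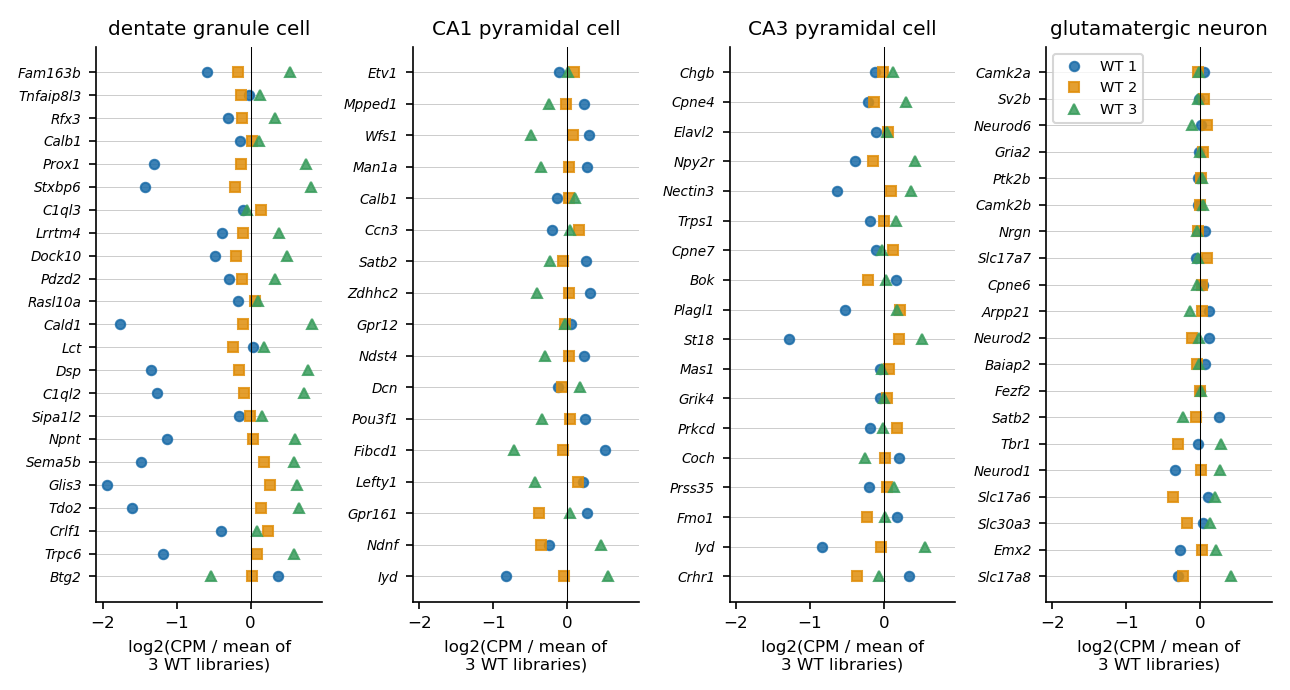
Log2 ratio of the CPM in each WT library to the mean CPM of the 3, for members of 4 lists at the floor, ordered by mean CPM. Granule cell genes such as Prox1, Stxbp6 and Cald1 fan out from WT 1 on the left to WT 3 on the right, whereas most glutamatergic genes lie near 0.

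Hilar, subicular and extrahippocampal genes filled in the picture. Of 17 genes listed for dentate mossy cells, 15 reached the floor. The highest, Dkk3 at 1099 to 1202 TPM and Ociad2 at 547 to 760 TPM, are also made elsewhere. All 4 defining genes reached the floor, with a median of 17.4 TPM. Drd2 and Calcrl among them were at 1.72, 1.53 and 3.06 TPM and 2.24, 0.927 and 2.19 TPM. For subicular neurons, 13 of 14 reached the floor, with Nts, a neuropeptide, at 31.4, 22.1 and 20.7 TPM and Fn1 at 3.08, 2.98 and 3.49 TPM. Among genes of cortical projection neurons, Fezf2 stood at 123 to 130 TPM but the layer markers Rorb and Scnn1a at 3.50, 2.502 and 3.67 TPM and 3.17, 3.20 and 5.62 TPM. Rspo1, another cortical layer marker, stayed under the floor. Thalamic and hypothalamic genes reached the floor in 6 of 17 cases (35.3%), and Tcf7l2, Gbx2 and Otp were under it in the 3 libraries. Genes of dopamine, serotonin, noradrenaline and acetylcholine neurons were mostly under the floor, which 2 of 18 reached, Slc18a2 at 6.02, 3.25 and 4.505 TPM and Tph2 at 2.24, 2.07 and 2.22 TPM. Th had 0, 0 and 3 counts, Slc6a4 0, 0 and 3 counts and Chat 0 in each library. A count of 0 allows up to 3 counts, or 0.0806, 0.0606 and 0.0629 CPM, for counting error only.

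Neuropeptide precursors reached the floor in 22 of 36 cases (61.1%, against 53.9% of protein-coding genes). Cck was the highest, 2.90-fold above Chgb, 19.0-fold above Sst and 193-fold above Vip. After Chgb came Scg5, a chaperone of prohormone convertase, at 184, 327 and 173 TPM, with WT 2 apart from the others, and Scg2 at 248, 178 and 195 TPM. Grp was at 56.8, 67.2 and 62.8 TPM and Penk, the enkephalin precursor, at 64.3, 52.9 and 51.6 TPM. Values of Grp and Penk overlapped those of Sst. Oxt, Hcrt and Trh had no count in any library.

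Among ionotropic glutamate receptors, all 4 AMPA subunit genes reached the floor. Gria1 was at 219, 225 and 203 TPM, Gria3 at 166, 149 and 185 TPM and Gria2, whose edited subunit keeps the channel impermeable to calcium, at 136, 141 and 142 TPM. Gria1 exceeded Gria2 in all 3 libraries by the exon union, 1.55-fold, but stood at 0.40-fold of it with the median transcript length, so the order of the 3 is not settled. Gria4 was lowest at 14.2, 12.6 and 11.1 TPM, 11.1-fold under Gria2. Of the NMDA subunits, Grin2b was at 340, 316 and 331 TPM, the obligatory subunit gene Grin1 at 47.4, 51.3 and 42.6 TPM and Grin2a at 38.7, 41.4 and 38.6 TPM. Grin2b exceeded Grin2a 8.32-fold, in all 3 libraries and with each length tried. Grin2c and Grin3b stayed under the floor. Kainate receptors were led by Grik5 at 21.9, 28.5 and 25.7 TPM, with Grik1 under the floor. Of 8 metabotropic receptors Grm5 was highest at 66.0, 71.7 and 66.6 TPM, and Grm6, the receptor of retinal bipolar cells, had no count.

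By the exon union, GABA-A receptor genes were led by Gabra5, an order that did not hold with the median transcript length. This gene, which encodes the alpha 5 subunit of extrasynaptic receptors known for the hippocampus, was at 842, 889 and 879 TPM. It varied little between the libraries. Gabra2 was at 65.6, 77.0 and 55.3 TPM. Gabra5 exceeded Gabra2 13.3-fold with the exon union, 11.4-fold with the longest transcript and 4.84-fold with the median transcript length, in all 3 libraries. Gabra4 was at 61.7, 55.5 and 68.5 TPM and Gabrb2 at 56.5, 61.1 and 56.9 TPM, in the range of Gabra2. Gabrd, the delta subunit of granule cells and neurogliaform cells, was at 0.634, 4.57 and 3.36 TPM, and under the floor in WT 1. Prox1 was also lowest in WT 1, but Gabrd, unlike Prox1, was not highest in WT 3. The part of granule cells in the level of Gabrd was not tested. Gabra6, Gabrp and Gabrr3 had no count. Of 19 GABA-A genes 11 reached the floor (57.9%, against 53.9% of protein-coding genes). The GABA-B receptor genes Gabbr2 and Gabbr1 were at 200, 224 and 258 TPM and 178, 188 and 170 TPM, and their order turned with both other lengths.

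Receptors for CCK itself were low. Cckbr, the main brain receptor, was at 13.8, 8.80 and 9.62 TPM, highest in WT 1. Cckar had 0, 3 and 19 counts and stayed under the floor. Among 14 cannabinoid and lipid receptors 4 reached the floor, and Cnr1 exceeded the next, Ptger4 at 2.49 to 3.48 TPM, in every library. Cnr2, the cannabinoid receptor of immune cells, had 0, 0 and 5 counts.

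Receptors for monoamines and acetylcholine were found at low to moderate levels. Htr1a, the inhibitory serotonin receptor, was at 31.1, 26.3 and 27.6 TPM and Htr5a at 22.4, 26.2 and 19.1 TPM, nearly equal in WT 2 and not settled in order. Htr5b was at 25.3, 14.6 and 12.03 TPM, highest in WT 1. Of 14 serotonin receptors, 10 reached the floor. Drd5 was the highest dopamine receptor at 16.3, 8.05 and 10.8 TPM, although 48.6% of its exon bases are shared with another gene. Drd1 and Drd2 were at 1.80 to 3.31 TPM and 1.53 to 3.06 TPM, and Drd3 had no count. Adra2c led the adrenergic receptors at 19.2, 14.1 and 11.7 TPM. Chrm1, the muscarinic M1 receptor, was at 70.0, 60.3 and 65.9 TPM, 4.77-fold above Chrm3, and Chrna4 led the nicotinic subunits at 24.0, 17.7 and 18.1 TPM. The adenosine A1 receptor gene Adora1 was higher than all of these, at 123, 133 and 135 TPM, while Adora2a, an adenosine receptor of striatal neurons, had 0, 0 and 2 counts.

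Peptide, growth factor and nuclear receptors completed the set. Sstr4, a somatostatin receptor, was at 94.5, 92.7 and 78.3 TPM, 6.35-fold above Sstr3. Npy2r was at 54.9, 64.7 and 99.0 TPM, highest in WT 3, and Npy1r at 28.9, 37.9 and 40.7 TPM. Mchr1 and Oxtr, receptors for melanin-concentrating hormone and oxytocin, were at 35.3, 22.9 and 18.1 TPM and 25.2, 19.4 and 13.9 TPM, both highest in WT 1. Sort1, the sorting receptor sortilin, was at 144, 152 and 146 TPM and Ntrk2, the BDNF receptor TrkB, at 28.6, 25.8 and 21.7 TPM. Sort1 exceeded Ntrk2 5.86-fold, but the ratio was 0.975 with the median transcript length. Of 23 nuclear receptors 20 reached the floor. Thra, the thyroid hormone receptor alpha, was at 247, 222 and 254 TPM, and the mineralocorticoid receptor gene Nr3c2 at 104, 105 and 107 TPM. Nr3c2 exceeded the glucocorticoid receptor gene Nr3c1, at 38.1, 30.8 and 29.5 TPM, 3.23-fold in TPM. That order held in all 3 libraries and with each length tried. Esr1, the estrogen receptor alpha, had 23, 86 and 100 counts and did not reach the floor in all 3 libraries.

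**Figure D5:**
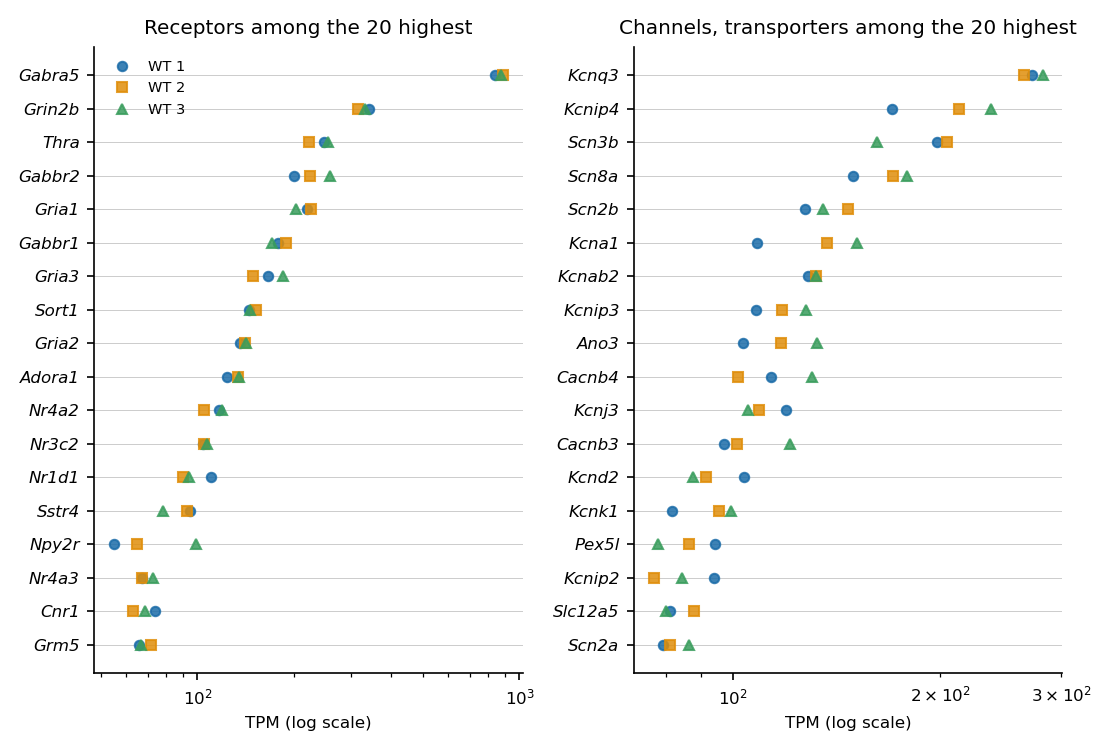
TPM (log scale) of genes among the 20 receptor genes (left) and among the 20 channel, channel subunit and transporter genes (right) with the highest mean over 3 WT libraries, 1 symbol per library. Gabra5 leads the receptors and Kcnq3 the channels, and Npy2r is the receptor shown with the widest spread, from 54.9 to 99.0 TPM.

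Voltage-gated sodium channels were represented by 11 of 15 genes at the floor. The accessory subunits Scn3b and Scn2b were at 198, 205 and 162 TPM and 127, 147 and 135 TPM. Scn8a, the Nav1.6 channel of the axon initial segment, was at 149, 171 and 179 TPM, 2.02-fold above Scn2a at 79.3, 81.1 and 86.5 TPM. Scn1a, the Nav1.1 channel known for interneurons, was at 31.6, 31.0 and 32.2 TPM, 2.60-fold under Scn2a. These orders held in all 3 libraries and with each length. Scn10a and Scn11a of sensory neurons had no count. Among calcium channels 15 of 18 reached the floor, the highest pore-forming gene being Cacna1e at 64.9, 63.4 and 71.5 TPM, 2.19-fold above Cacna1b. The order of the beta subunit genes Cacnb4, at 102 to 131 TPM, and Cacnb2, at 64.9 to 68.9 TPM, turned with both other lengths.

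Potassium channels were led by the M-current subunit gene Kcnq3 at 273, 265 and 282 TPM. It was nearly constant between the libraries. Among Kv1 to Kv4 genes, 22 of 26 reached the floor: Kcnip4, an auxiliary subunit of Kv4 channels, was at 171, 213 and 237 TPM, Kcna1 at 108, 137 and 152 TPM and Kcnd2, the Kv4.2 channel of pyramidal dendrites, at 104, 91.3 and 87.7 TPM. Kcnip4 and Kcna1 were both lowest in WT 1 and highest in WT 3, and Kcnd2 ran the other way. Kcnj3, the GIRK1 channel opened by GABA-B receptors, was at 120, 109 and 105 TPM, with 31.1% of its exon bases shared with another gene, and Kcnj6 at 23.6, 21.2 and 21.1 TPM. Kcnk1 led the two-pore channels at 81.7, 95.5 and 99.4 TPM, and 4 of 14 in that family had no count. Kcnma1 and Kcnn2, calcium-activated channels of large and small conductance, were at 23.1, 26.8 and 30.2 TPM and 23.2, 22.5 and 20.2 TPM.

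Among genes of pacemaker (HCN) channels, Hcn2 was at 1.40, 1.65 and 1.86 TPM and Hcn4 was under the floor. The auxiliary subunit gene Pex5l, also called TRIP8b, was at 94.3, 86.3 and 77.9 TPM. Both Pex5l and Kcnd2 were lowest in WT 3. Trpc5 and Trpc4 led the TRP channels at 50.3, 34.8 and 31.9 TPM and 26.0, 26.4 and 22.8 TPM, and their order turned with both other lengths. Slc12a5, the chloride exporter KCC2 of mature neurons, was at 81.2, 87.9 and 80.1 TPM, 48.0-fold above the chloride importer gene Slc12a2 at 1.79, 1.86 and 1.55 TPM. Ano3 was at 103, 117 and 133 TPM.

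RNA of non-neuronal cells was present but scarce by defining markers. Of 24 astrocyte genes 15 reached the floor (62.5%, against 53.9% of protein-coding genes), so that count does not show scarcity. Slc1a2, the glutamate transporter GLT-1, was at 71.1, 80.1 and 99.6 TPM and Glul, glutamine synthetase, at 58.5, 46.2 and 64.1 TPM. Slc1a2 is also transcribed in some neurons. The defining genes were far lower: Aqp4, a water channel of astrocytic endfeet, was at 1.49, 1.80 and 1.45 TPM, Gja1 had 8, 15 and 33 counts and Aldh1l1 had 0, 4 and 2 counts. Slc17a7 exceeded Aqp4 128-fold. Of 20 oligodendrocyte genes 10 reached the floor (50%), near the share of all protein-coding genes. Cnp was at 24.0, 22.6 and 24.5 TPM and Mbp at 9.996, 11.8 and 12.2 TPM, whereas the myelin genes Mog and Mag had 3, 5 and 17 counts and 9, 1 and 1 counts. Precursor genes reached it in 6 of 14 cases, with Pdgfra at 17, 27 and 10 counts.

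Microglial genes reached the floor in 3 of 26 cases (11.5%), Cd68 and Csf1r among them, and the list's summed level was 13.8, 24.8 and 18.1 CPM. Cx3cr1, the fractalkine receptor, had 11, 26 and 23 counts. Of 21 endothelial genes 7 reached the floor. Bsg, which many cells make, was at 172, 138 and 141 TPM, and the tight-junction gene Cldn5 had no count. Mural genes reached it in 2 of 15 cases, with Rgs5 at 36.2, 39.8 and 50.8 TPM and Acta2 at 10, 5 and 7 counts. Rgs5 and Cldn5 thus stood far apart, although both are vessel genes. Of 15 choroid plexus genes 5 reached the floor. Ttr, the transthyretin secreted by choroid plexus, was at 9.78, 32.4 and 16.5 TPM, highest in WT 2, while Folr1 had 0, 5 and 0 counts. No red blood cell gene reached the floor in all 3 libraries: Hba-a2 was at 1.49, 27.3 and 4.10 TPM and Hbb-bs at 0.108, 21.7 and 6.25 TPM, both highest in WT 2. The part of any of these cells in the levels of shared genes was not tested.

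The spread between the libraries was also taken over all genes, list members included. Of 9113 genes with a mean of at least 10 CPM, the highest library exceeded the lowest by a median of 1.20-fold, 946 (10.4%) did so by more than 1.5-fold and 128 by more than 2-fold. The common biological coefficient of variation was 0.136. Btbd16 was the most variable, at 1.45, 0.525 and 78.7 CPM, so nearly all of it lay in WT 3. Rimbp3 was at 58.2, 2.08 and 2.79 CPM and Tra2a, a splicing regulator, at 429, 35.2 and 38.2 CPM, both high in WT 1 alone. Cald1, Stxbp6, Dsp, Prox1 and C1ql2 of the granule cell list were among the 15 most variable genes. That list was already noted for its spread in the same libraries, so this is not a separate observation. St18, listed for CA3, was at 14.8, 41.5 and 51.6 CPM and the imprinted noncoding RNA Rian at 131, 38.6 and 94.3 CPM.

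The genes of the series' own question were low or moderate. Hltf, which encodes SMARCA3, was at 7.19, 4.40 and 5.38 TPM, and S100a10, which encodes its partner p11, at 12.5, 12.5 and 16.7 TPM. Anxa2, the annexin that binds p11, had 0, 12 and 5 counts. Rpl10 and Rpl10a, candidates for the endogenous counterpart of the tagged protein, were at 267, 225 and 238 TPM and 258, 249 and 230 TPM. Whether RNA of the L10-EGFP fusion adds to the counts of either gene was not tested. By the exon union, Rpl10 and Rpl10a did not differ beyond their spread: Rpl10a was above Rpl10 in WT 2 and below it in the others. With the longest transcript Rpl10a stood at 0.689-fold of Rpl10, so their order is not settled.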

How the data were processed

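RNA from TRAP pull-downs was counted in 3 WT libraries, with groups taken from the genotype label. The authors deposited raw counts, whole numbers per Ensembl gene without scaling, and the submitters' processing notes name STAR 2.5.3a, HTSeq and mm10. The annotation release, strand setting and filters are not given in the sources used here. Every count column matched a sample by its title. Symbols, biotypes, positions and exon lengths came from GENCODE for the same build, and 37607 of 39017 genes had a symbol. The 1410 without one took 0.637 to 0.651% of counts. CPM is the count over the library total, and TPM was computed from counts and the union of exons over the 31850 genes with at least 200 exon bases, a limit set after short RNAs were seen to inflate the total. Genes were named by rule: the 4 markers, the 25 highest by CPM and 20 by TPM, defining members, 8 highest members and, where 8 or fewer, members under the floor of each list described, the 15 most variable genes, Hltf, S100a10, Rpl10 and Rpl10a. Single genes named beyond that rule to illustrate a family were chosen after their values were seen. A few genes covered by it are left out of the text and figures. The 69 gene lists and the rule were chosen with earlier results of these data known. Total counts of 37239119 to 49522676 set the floor of a count of 0 (3 counts) at 0.0606 to 0.0806 CPM. Scaling alternatives used edgeR 4.0.16 and DESeq2 1.42.0 in R 4.3.3, and other floors, totals, lengths and each library left out were also tried. The level computation was tested on simulated data. Figures used Python 3.11.15 and matplotlib 3.10.9.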

Additional observations from a re-analysis of the deposited data

How the results depend on the processing

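No paired analysis was possible because the description rests on 1 group with no contrast. The number of genes at the floor, 13674, ran from 13674 to 18344 under 8 other floors and totals and from 13852 to 14011 with a library left out. Over protein-coding genes alone, the top 10, 100 and 1000 genes took 9.19, 23.7 and 58.1% of counts. The log2 ratio of Slc17a7 to Gad2 was 2.90 with the longest transcript and 2.05 to 2.23 with a library left out. With the longest transcript, the summed TPM was 7388 for glutamatergic and 159 for GABAergic genes, against 6740.4 and 142. With the median transcript length it was 7365 and 188, and it became 1093 for astrocyte genes and 18.1 for microglial ones, against 268 and 29.6. With genes of every length in the total, an alternative chosen after seeing the data, it was 4969 for glutamatergic, 105 for GABAergic and 198 for astrocyte genes. Summed TPM of granule cell genes ran from 781 to 1047 with a library left out. Of 2548 other comparisons of single genes and lists, 503 moved by more than 1 SD of the libraries, 148 of them with the median transcript length, 135 with genes of every length and 91 with the longest transcript. Of 63 gene pairs compared in TPM, 62 kept 1 order in all 3 libraries, 6 turned with the longest transcript and 12 with the median length. TMM and size factors moved 5 values each. Genes with under 50 counts in a library are limited by counting error.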

Other observations

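Cytosolic ribosomal protein genes were all present: 78 of 78 reached the floor, with a median member at 229 TPM and a summed level of 11424, 11534 and 10563 CPM. Rpl38 was the highest at 1016, 1004 and 859 TPM and Rps19 the lowest at 15.6, 11.7 and 12.9 TPM. Glycolysis genes reached the floor in 18 of 19 cases, led by Pgam1 at 1418, 1518 and 1584 TPM, Aldoa at 1324, 1423 and 1536 TPM and Gapdh at 709, 664 and 1026 TPM, the last of which was highest in WT 3. The order of Pgam1 and Aldoa turned with the longest transcript. The processed pseudogene Pgam1-ps2 was at 3659, 3914 and 4077 TPM, above Pgam1 in each library. How reads were divided between genes and their pseudogenes is not stated, so levels of genes with such copies need care. Ldhb exceeded Ldha in each library, at 488, 428 and 433 TPM against 199, 168 and 171 TPM. Aldoc, the aldolase of astrocytes, was at 16.5, 10.3 and 20.2 TPM. All 33 presynaptic and all 30 postsynaptic genes listed reached the floor, with Vamp2 at 1567, 1717 and 1833 TPM.

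Immediate early genes reached the floor in 22 of 24 cases. Egr1 was at 311, 213 and 214 TPM and Arc at 63.1, 41.7 and 35.1 TPM, both highest in WT 1, as was the phosphatase gene Dusp1 at 43.7, 27.4 and 23.2 TPM. Jun ran the other way, at 21.0, 33.8 and 48.2 TPM, while Fos was low at 2.11, 1.90 and 1.47 TPM. The mitochondrially encoded ribosomal RNA genes mt-Rnr2 and mt-Rnr1 were at 1330, 1367 and 1094 TPM and 1365, 1131 and 899 TPM, lowest in WT 3 as Gm42418 and Lars2 were. Of 15 mitochondrially encoded RNA genes 14 reached the floor, against 35.0% of all genes. The share of RNA not bound to tagged ribosomes was not tested. Ddx3y, a gene of the Y chromosome, was at 11.9, 11.4 and 17.0 TPM, and Xist had 14, 21 and 9 counts, the same counts as its antisense partner Tsix.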
